A study of Arabidopsis thaliana with 4 samples.

Results

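Marker genes of sugar starvation and darkness were followed in Arabidopsis thaliana roots short of phosphate. They are DIN1 (also SEN1), DIN2, DIN6 (also ASN1), DIN10, BT1, BT2, BCAT2, THA1, BXL1 and SEN5 (AT3G15450), 10 of the 27655 genes in the deposited table. The markers were chosen by name and identifier, with earlier results of these data known. The study, by its title, is about how the cytokinin cis-zeatin acts when roots lack phosphate. Roots of wild-type Col-0 seedlings grown for 8 days on half-strength Murashige and Skoog medium were compared at 5 µM phosphate (low_Pi, 2 libraries) and at 625 µM phosphate (plus_Pi, 2 libraries). The name of the deposited table calls the roots dark grown. The sample labels name neither the light nor the sugar in the medium. Neither could be compared here, and the labels do not say whether either differed between the groups.

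In plants, sugar supply is read in part by SnRK1, a protein kinase that is active when carbon is scarce and restrained by trehalose 6-phosphate when sucrose is plentiful. Active SnRK1 works partly through bZIP transcription factors of groups C and S1 and turns on genes that release carbon and nitrogen from amino acids, cell walls and stored sugars. The dark-inducible (DIN) genes and SEN1 were found by their induction in darkened leaves, and sucrose or glucose represses them. Several of the markers also answer to nitrogen supply: ASN1 and the BT genes are used as nitrogen-responsive genes as well.

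The values are the authors' normalized counts, whose column totals were 42069421 and 38831704 in low_Pi and 40584090 and 44635953 in plus_Pi replicates 1 and 2. Same-group columns lay closer together than read counting would leave them: the chi-square per gene under a common ratio was 0.284 for low_Pi and 0.432 for plus_Pi, where independent read counts give about 1. Each group was therefore counted as 1 sample, and the differences below have no replicate check, standard deviation or p-value. Log2 differences are low_Pi minus plus_Pi on the scale log2(value + 41.5), which understates the difference of genes with low values. A gene was called lower or higher at a 2-fold difference if its mean over the columns was at least 41.5, which 18729 genes reached. The phosphate-starvation RNA IPS1 had 27943 and 26144 in low_Pi roots against 99 and 412 in plus_Pi roots, as the labels imply. All 9 root markers checked, among them SHR, SCR and CASP1, passed the filter. In whole roots, fewer cells that use a gene and less RNA per cell cannot be told apart.

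Of the 10 markers, 9 were at least 2-fold lower in low_Pi and 0 were higher. Among all genes tested, 4.47% were at least 2-fold lower and 4.58% at least 2-fold higher. The remaining marker, THA1, lay below the filter. At least 4-fold lower were 6 markers and 0 were 4-fold higher, against 0.577% and 1.45% of all genes tested. The markers were chosen with earlier results of these data known, so these counts describe them and are no test. The median log2 difference over all 10 markers was -3.34, while the median gene tested stood at -0.26. BCAT2 passed the filter only through its plus_Pi values, so its call was bound to be a difference. In all 10 markers both low_Pi columns lay below both plus_Pi columns, as they did in 62.5% of all genes tested. The summed level of the 10 markers made up 0.0289% and 0.0278% of the low_Pi column totals, against 0.282% and 0.278% of the plus_Pi column totals.

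**Figure D1:**
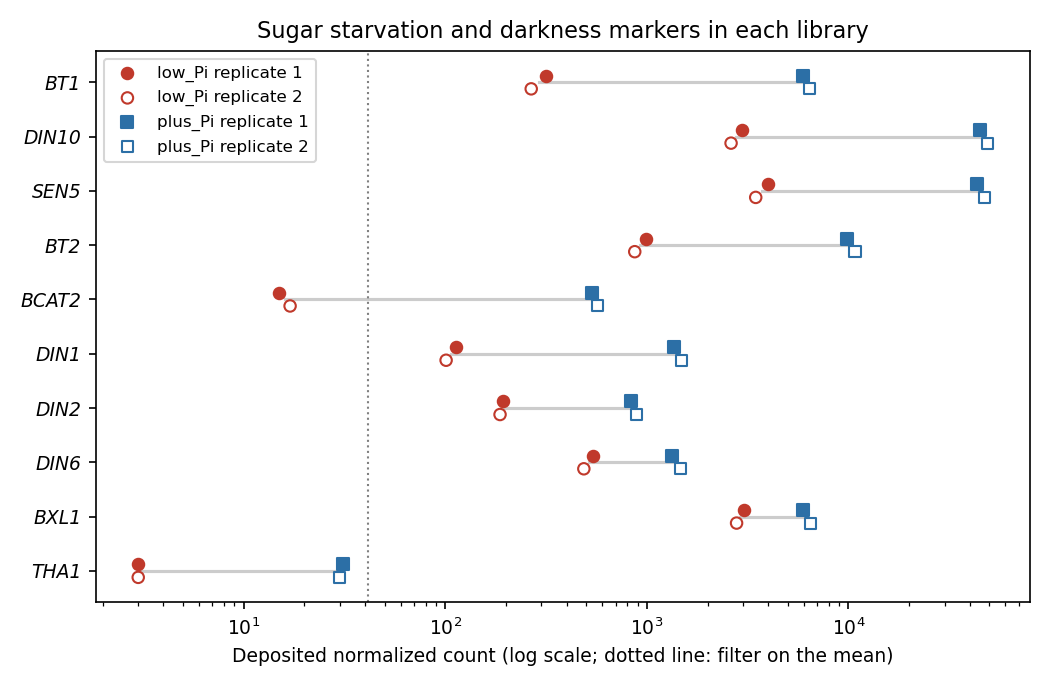
Deposited normalized count (log axis) of each marker in the 2 low_Pi libraries (red circles) and the 2 plus_Pi libraries (blue squares), with a grey line joining the group means and a dotted line at the filter of 41.5. Every marker's red circles lie left of its blue squares, and the 2 columns of a group lie close together.

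BT1 and BT2 encode adapter proteins with a BTB and a TAZ domain, which link targets to ubiquitin ligases and take part in nitrate and sugar responses. BT1 (AT5G63160) had 315 and 267 in low_Pi roots, against 5938 and 6430 in plus_Pi roots. Both low_Pi columns were far below both plus_Pi columns, and the means of 291 and 6184 differed by a factor of 21.3. Its log2 difference of -4.23 was the 7th lowest of the 18729 genes tested. BT2 (AT3G48360) had 987 and 871 in low_Pi roots, against 9849 and 10778 in plus_Pi roots. The groups were again well apart, at a log2 difference of -3.42. Over the pairings of 1 low_Pi with 1 plus_Pi column, BT1 ranged between -4.39 and -4.07 and BT2 between -3.57 and -3.27.

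Of the amino acid genes, DIN6 (AT3G47340) encodes the asparagine synthetase ASN1, which stores nitrogen in a carbon-poor form. DIN6 had 542 and 487 in low_Pi roots, against 1339 and 1466 in plus_Pi roots. The groups did not overlap, but the log2 difference of -1.38 was small beside that of the BT genes. BCAT2 (AT1G10070), a mitochondrial branched-chain aminotransferase that starts the breakdown of leucine, isoleucine and valine, had 15 and 17 in low_Pi roots, against 536 and 571 in plus_Pi roots. The low_Pi columns were near the bottom of the scale, so the log2 difference of -3.37 depended on the pseudocount: it was -1.77 with a pseudocount of 208 and -4.79 with 4.15. THA1 (AT1G08630), a threonine aldolase that splits threonine to glycine and acetaldehyde, had 3 and 3 in low_Pi roots, against 31 and 30 in plus_Pi roots. These values are low in both groups, and THA1 was not called. Its log2 difference was -0.69, and -2.28 with a pseudocount of 4.15.

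The sugar and cell wall genes were DIN10, DIN2 and BXL1. DIN10 (AT5G20250), annotated as a raffinose synthase family protein, had 2950 and 2617 in low_Pi roots, against 44794 and 48840 in plus_Pi roots. The means of 2784 and 46817 differed by a factor of 16.8, and the log2 difference of -4.05 was the 10th lowest of all genes tested. DIN2 (AT3G60140), the beta-glucosidase BGLU30, had 193 and 187 in low_Pi roots, against 838 and 886 in plus_Pi roots. Its low_Pi values were all below its plus_Pi values, with a log2 difference of -1.96. BXL1 (AT5G49360), a beta-xylosidase that trims arabinose and xylose from cell wall polymers, had 3026 and 2787 in low_Pi roots, against 5982 and 6505 in plus_Pi roots. BXL1 was the called marker closest to the 2-fold limit, at a log2 difference of -1.09. Scaling by median-of-ratios put it at -0.82 and quantile normalization at -0.97, both under 2-fold.

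DIN1 and SEN5 are known mainly as markers. DIN1 (AT4G35770), a rhodanese-domain protein, had 113 and 101 in low_Pi roots, against 1363 and 1493 in plus_Pi roots. The means of 107 and 1428 differed by a factor of 13.3, and the log2 difference was -3.31, or -2.38 with a pseudocount of 208. SEN5, which RefSeq names only as an aluminum-induced protein with YGL and LRDR motifs, had 3995 and 3468 in low_Pi roots, against 43614 and 47144 in plus_Pi roots. Its log2 difference was -3.59, the 15th lowest of all genes tested. Without correction for gene length, DIN10 and SEN5 together gave 57.2% and 56.3% of the markers' summed level in low_Pi, against 77.4% and 77.3% in plus_Pi.

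**Figure D2:**
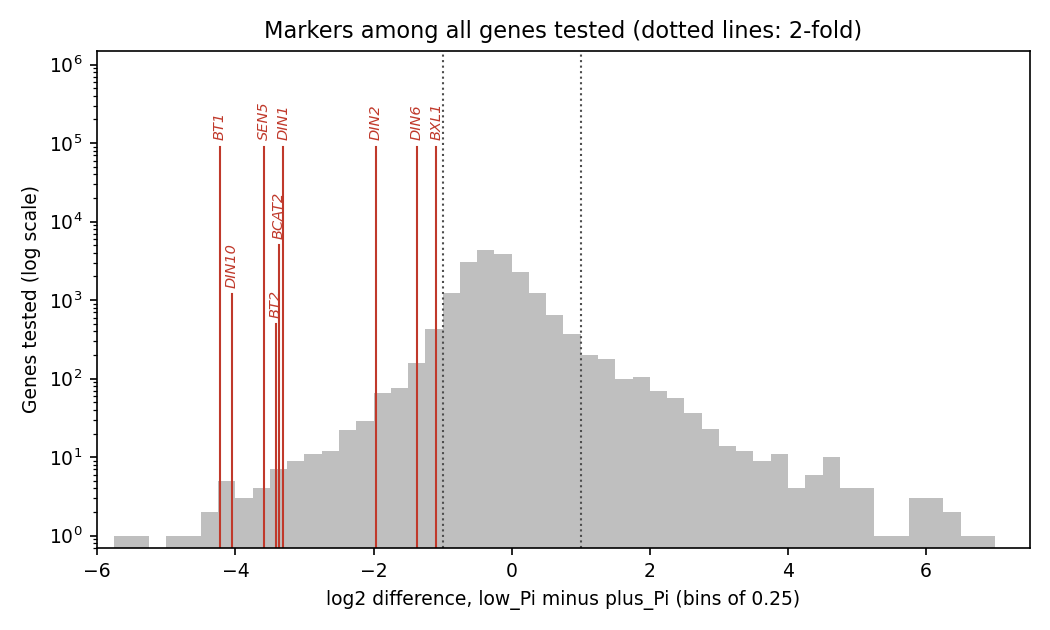
Number of genes tested (log axis) by log2 difference in bins of 0.25, with red lines at the 9 markers that passed the filter (line height carries no meaning) and dotted lines at a 2-fold difference. BT1, DIN10, SEN5, BT2, BCAT2 and DIN1 lie in the sparse lower tail between -4.23 and -3.31, and DIN2, DIN6 and BXL1 between -1.96 and -1.09.

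Of the called markers, 6 had log2 differences of -3.31 or lower and 3 lay between -1.96 and -1.09. This gap depended on the pseudocount: at 208, BCAT2 stood at -1.77 and DIN1 at -2.38, beside -1.43 for DIN2. Over the same column pairings, DIN10 ranged between -4.20 and -3.91 and BXL1 between -1.21 and -0.97, which is no replicate error because each group counts as 1 sample. Relative to the median gene tested, BT1 stood at -3.97, DIN10 at -3.80, DIN2 at -1.71, DIN6 at -1.12 and BXL1 at -0.84.

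Relatives of the markers spread over a wide range of differences. Among the 3 other BT genes, BT5 was lower, with 318 and 297 in low_Pi roots against 2044 and 2253 in plus_Pi roots (log2 -2.65). BT3 stood at a log2 difference of -0.90 from values of 22 and 20 in low_Pi roots against 68 and 83 in plus_Pi roots, and BT4 at 0.15. The asparagine synthetase genes ASN2 (log2 -0.86) and ASN3 (-0.31) lay under 2-fold. The threonine aldolase gene THA2 was listed at 629 and 575 in low_Pi roots, against 656 and 708 in plus_Pi roots, a log2 difference of -0.17.

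The branched-chain aminotransferase family held differences in both directions. BCAT4, which acts in methionine chain elongation for glucosinolates, was higher, with 3645 and 3286 in low_Pi roots against 454 and 564 in plus_Pi roots (log2 2.68). BCAT6 stood at 0.68, BCAT1 at -0.05, BCAT5 at -0.19 and BCAT3 at -0.30, so BCAT2 was the 1 family member that was 2-fold lower. Of the other beta-xylosidase genes, BXL2 stood at -0.89, BXL6 at -0.66, BXL4 at -0.09 and BXL7 at 0.64, while BXL3 and BXL5 were below the filter.

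**Figure D3:**
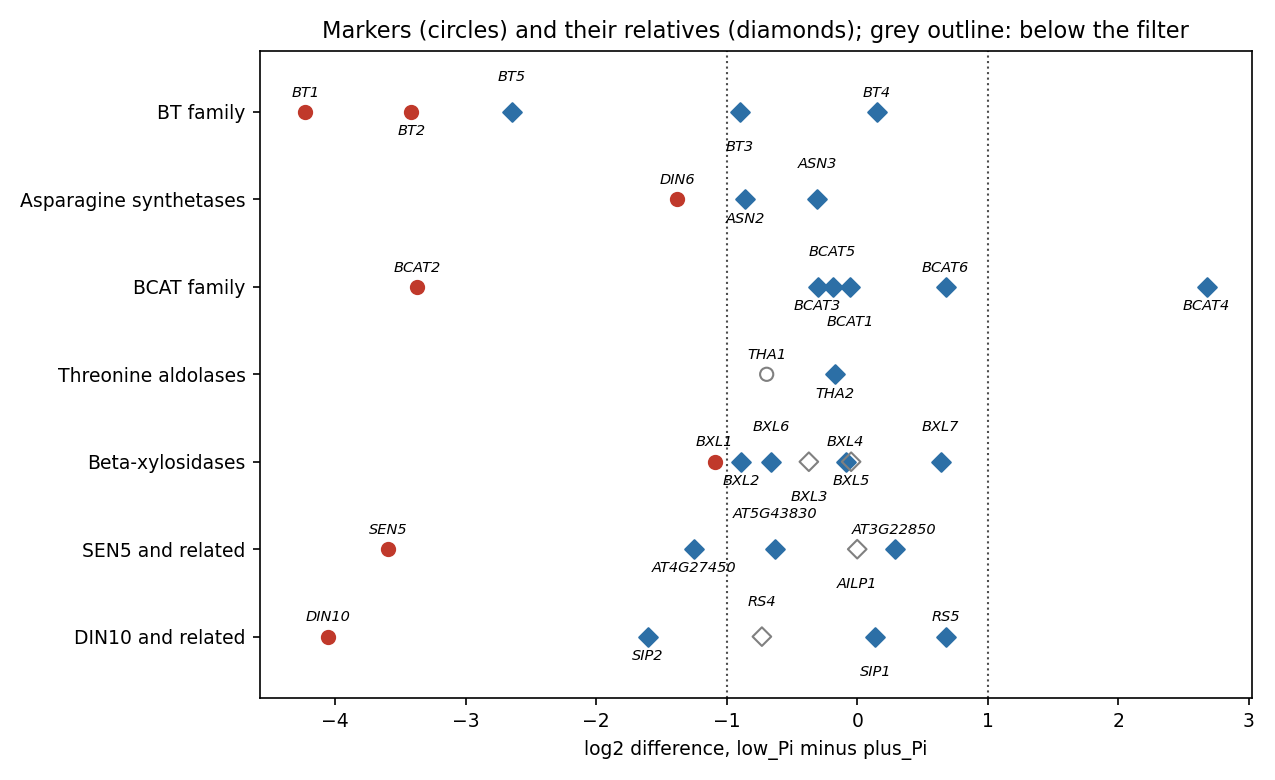
Log2 difference of markers (red circles) and of their relatives (blue diamonds) in 7 families, with grey outlines for genes below the filter and dotted lines at 2-fold. Every marker drawn is the lowest of its row, except BT2, which is next to BT1, and BCAT4 at 2.68 is the 1 relative called higher.

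The genes related to SEN5 and DIN10 held 1 lower gene each. AT4G27450, annotated like SEN5, had 1249 and 1174 in low_Pi roots, against 2808 and 3068 in plus_Pi roots (log2 -1.25, or -0.98 with median-of-ratios scaling). AT5G43830 stood at -0.63 and AT3G22850 at 0.29, and AILP1 was listed at 0 in all columns. SIP2, annotated as a seed imbibition protein, was lower, with 3810 and 3469 in low_Pi roots against 10659 and 11682 in plus_Pi roots (log2 -1.61). RS5, a raffinose synthase gene, stood at 0.68 and SIP1 (AT1G55740) at 0.14, and RS4 was below the filter. Of 4 beta-glucosidase genes near DIN2 in name, BGLU28 had 75 and 70 in low_Pi roots against 37 and 44 in plus_Pi roots, and BGLU29, BGLU31 and BGLU32 were listed at 0.

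The wider pathway was read from 10 lists with 87 genes, also chosen with earlier results of these data known. Of the 80 that passed the filter, 21 were at least 2-fold lower and 4 at least 2-fold higher. Among all genes tested these shares were 4.47% and 4.58%, which also stand beside the counts of each list below. The median log2 difference of the 80 genes, -0.31, was close to the -0.26 of the median gene tested, so the lower genes were only a part of the lists. Under median-of-ratios scaling, which shifts the median of all genes to 0.00, the list genes split into 16 lower and 5 higher. All genes tested split into 838 lower and 857 higher as deposited, and into 428 lower and 1238 higher with that scaling.

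Branched-chain amino acid breakdown, the route that BCAT2 opens, had 7 of 13 genes lower and 0 higher. Its median log2 difference was -1.16, and all 13 genes were below 0, as were 13374 of the 18729 genes tested. DIN3, the E2 subunit of the branched-chain keto acid dehydrogenase, had 731 and 673 in low_Pi roots, against 4229 and 4578 in plus_Pi roots (log2 -2.58). MCCA, the biotin subunit of methylcrotonyl-CoA carboxylase, stood at -2.31 and IVD, isovaleryl-CoA dehydrogenase, at -1.87. The E1 alpha gene AT1G21400 (BCKDH-E1A1) had 9 and 7 in low_Pi roots, against 162 and 174 in plus_Pi roots, and it passed the filter only through its plus_Pi values, so its call was bound to be a difference. Its log2 difference of -2.08 was -0.80 with a pseudocount of 208. The other E1 alpha gene, AT5G09300 (BCKDH-E1A2), stood at -0.35. The electron transfer genes ETFA (-0.29), ETFB (-0.33) and ETFQO (-0.68) were under 2-fold. The list median was under 2-fold with a pseudocount of 208 (-0.80), median-of-ratios scaling (-0.90), quantile normalization (-0.96) and a filter at 208 (-0.92). The call of DIN4 (-1.16), the E1 beta gene, ended with that pseudocount, that scaling and that normalization.

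Other amino acid breakdown had 3 of 6 genes lower and 0 higher. PRODH1, the proline dehydrogenase that is a target of group S1 bZIP factors, had 1922 and 1754 in low_Pi roots, against 14118 and 15233 in plus_Pi roots (log2 -2.97). GDH1, a glutamate dehydrogenase, stood at -1.97 and MGL, methionine gamma-lyase, at -1.30. The second glutamate dehydrogenase gene, GDH2, had 49728 and 46108 in low_Pi roots, against 48305 and 53126 in plus_Pi roots (log2 -0.08). The second proline dehydrogenase gene, PRODH2, stood at 0.58.

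Of 8 other genes known to be induced by starvation, 2 were lower, 3 lay under 2-fold and 3 were below the filter. MIOX2, a myo-inositol oxygenase, had 752 and 651 in low_Pi roots, against 5782 and 6282 in plus_Pi roots (log2 -3.03). KMD4, an F-box protein of a family that marks type-B cytokinin response regulators for breakdown, had 533 and 486 in low_Pi roots, against 3625 and 3915 in plus_Pi roots (log2 -2.79). The hexose transporter genes STP1 (-0.72) and STP4 (-0.70) were under 2-fold, as was DIN9 (-0.38), a phosphomannose isomerase gene. DIN11 was listed at 0 in both low_Pi columns and at 1 and 2 in plus_Pi.

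**Figure D4:**
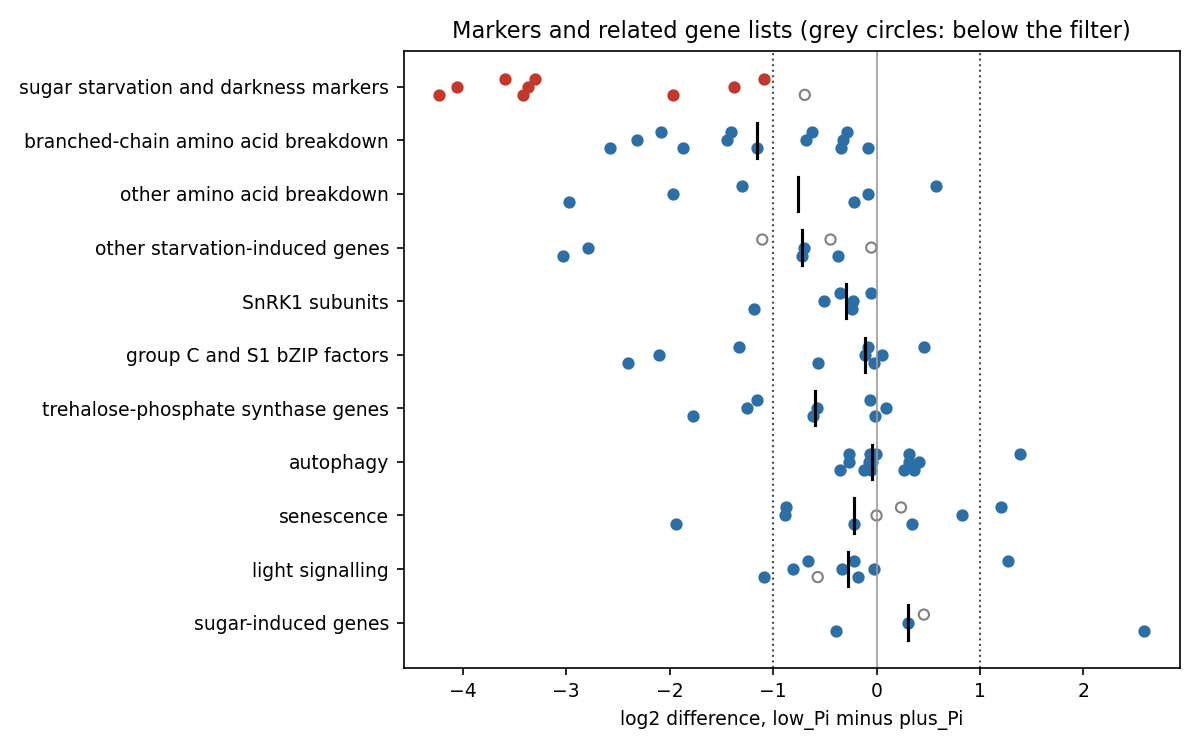
Log2 difference of each marker (red) and of each gene in the 10 related lists (blue), with grey circles for genes below the filter, black bars at list medians and dotted lines at 2-fold. The markers that passed the filter reach from -4.23 to -1.09, branched-chain breakdown has a median of -1.16, and autophagy genes centre at -0.04. The marker THA1, below the filter, is a grey circle at -0.69.

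Among the regulators, part of each list was lower and 0 genes were higher, against 4.47% lower and 4.58% higher of all genes tested. The list medians were -0.30 for SnRK1 subunit genes, -0.11 for bZIP genes and -0.60 for trehalose-phosphate synthase genes. Of 6 SnRK1 subunit genes, KINB1, a beta subunit, was lower, with 1757 and 1604 in low_Pi roots against 3705 and 4045 in plus_Pi roots (log2 -1.19, or -0.91 with median-of-ratios scaling). The catalytic subunit genes KIN10 and KIN11 stood at -0.24 and -0.50. Of 9 group C and S1 bZIP genes, bZIP63, bZIP1 and bZIP9 were lower. The SnRK1 substrate bZIP63 had 466 and 432 in low_Pi roots, against 2447 and 2658 in plus_Pi roots (log2 -2.40), and bZIP1 stood at -2.10 and bZIP9 at -1.33. The group S1 genes bZIP11 (-0.03), bZIP53 (-0.08) and bZIP2 (-0.11) were close to 0.

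Of 8 trehalose-phosphate synthase genes, TPS11 (log2 -1.78), TPS9 (-1.26) and TPS8 (-1.15) were lower and 0 were higher. TPS11 had 1478 and 1344 in low_Pi roots, against 4750 and 5127 in plus_Pi roots. With median-of-ratios scaling TPS11 alone remained 2-fold lower, as TPS9 stood at -0.98 and TPS8 at -0.88. TPS1, the active synthase, stood at -0.01 and TPS5, a gene that sugar induces, at 0.09.

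Autophagy, senescence and light signalling had median log2 differences of -0.04, -0.22 and -0.28. Of 15 autophagy genes, ATG8H was higher, with 6729 and 6242 in low_Pi roots against 2310 and 2612 in plus_Pi roots (log2 1.38), and 0 were lower. Of 9 senescence genes, 7 passed the filter, and of these SAG21 was lower (log2 -1.94). NYE1, which starts chlorophyll breakdown, was higher, with 1317 and 1237 in low_Pi roots against 499 and 562 in plus_Pi roots (log2 1.21). Of 9 light signalling genes, PIF3 was higher (log2 1.28) and PIF1 lower (-1.08). With a pseudocount of 208, PIF3 stood at 0.79 and PIF1 at -0.64. Median-of-ratios scaling (-0.86) and quantile normalization (-0.89) also left PIF1 under 2-fold.

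Of 4 sugar-induced genes, BAM5, a beta-amylase, was higher, with 234 and 219 in low_Pi roots against 1 and 5 in plus_Pi roots. It passed the filter only through its low_Pi values, so its call was bound to be a difference, and a filter at 208 removed that call. The log2 difference of BAM5, 2.59, was 1.04 and 5.07 with pseudocounts of 208 and 4.15. GPT2, a glucose 6-phosphate translocator, had 16 and 15 in low_Pi and was listed at 0 in both plus_Pi columns. It lay below the filter and was not called. The starch synthesis genes APL3 (0.31) and APL4 (-0.40) were under 2-fold.

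Outside the markers and with a mean of at least 415, the 5 genes with the column profile nearest to the median profile of the 9 markers that passed the filter were AT1G30730, AT2G22122, AT1G33055, AT1G26390 and AT5G59680. Likeness was the Euclidean distance of centred log2 values over the 4 columns, and it lay between 0.0411 and 0.161. RefSeq annotates AT1G30730 and AT1G26390 as FAD-binding Berberine family proteins, AT5G59680 as a leucine-rich repeat protein kinase, and the other two as uncharacterized. AT1G30730 had 300 and 281 in low_Pi roots, against 3248 and 3551 in plus_Pi roots (log2 -3.37). With 2 groups, the profile holds little beyond the size of the difference.

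The markers DIN6, DIN10, BCAT2, THA1 and SEN5 each overlap a gene on the other strand in the RefSeq annotation (TAIR10.1), and the protocols do not say whether strand was kept. BCAT2 overlaps AT1G10090, which had 1784 and 1659 in low_Pi roots, against 2120 and 2316 in plus_Pi roots, beside the 15 and 17 against 536 and 571 of BCAT2. THA1 overlaps PKDM7D (AT1G08620), which had 1708 and 1583 in low_Pi roots, against 2757 and 3029 in plus_Pi roots. The values of BCAT2 and THA1 are less certain for this overlap. The genes overlapping DIN6 and DIN10 averaged 0 and 5.75, and the gene overlapping SEN5 averaged 443.

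Of 10 green tissue markers, CA1 (-1.32), GAPB (-1.19) and PSAF (-1.16) were at least 2-fold lower in low_Pi and 7 lay under 2-fold. Their median log2 difference was -0.71, beside -0.26 for the median gene tested, and LHCB1.1 (-0.33) and LHCB2.1 (-0.22) stood near that median gene. No green tissue marker was listed at 0. PSAF and GAPB were under 2-fold with median-of-ratios scaling (-0.90 and -0.996), PSAF also with quantile normalization (-0.96). With a pseudocount of 208, CA1 stood at -0.65, GAPB at -0.58 and PSAF at -0.95. The summed level of the 10 green tissue markers was 5885 and 5437 in low_Pi roots, against 8621 and 9404 in plus_Pi roots, beside sums of 12139 and 10805 against 114284 and 124143 for the starvation markers. Their part in the difference of the starvation markers was not tested. Root markers stood on both sides: of 9, the root hair genes EXPA7 (1.67) and COBL9 (1.63) were higher and SMB, a root cap gene, was lower (-1.08). SMB was under 2-fold with median-of-ratios scaling (-0.84), quantile normalization (-0.87) and a pseudocount of 208 (-0.71). The summed level of the 9 root markers was 29008 and 27063 in low_Pi roots, against 17641 and 19559 in plus_Pi roots. CASP1, EXPA7 and COBL9, all with positive log2 differences, had the highest low_Pi values in this sum. The median log2 difference of the 9 root markers was -0.38, and 5 of them were below 0, as were 13374 of the 18729 genes tested. The part of the root markers in the result was not tested either.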

How the data were processed

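Polyadenylated RNA of Col-0 roots was sequenced on an Illumina instrument, per the labels' protocols. Named tools, whose roles are not stated, are HISAT2, HTSeq, edgeR, FastQC and CASAVA 1.4, per the submitters' processing notes. The genome build, annotation and normalization are not given in the sources used here. The authors deposited 1 table of whole numbers called normalized counts, which were treated as a score of unknown read depth, with no count model. The second low_Pi column was matched by name to its group only. Names came from the TAIR10.1 RefSeq table, which held 27445 of the 27655 identifiers.

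The pseudocount and filter of 41.5 are the same fixed share of the mean column total. Values were averaged over columns on the log2 scale in Python 3.11.15 (numpy 2.4.6), and the calculation was checked on simulated data. The planned limma test was not used, because it was tied to columns that differ by more than sampling noise. All 10 markers, their relatives and overlapping genes are named, with up to 4 genes per list at least 2-fold apart, largest first. Other list genes are examples chosen after their values were seen. The members and lists were chosen with earlier results of these data known. Alternatives covered pseudocount, filter, scaling, averaging, each omitted library and replicate pairing. A 4-fold limit and crossed pairing were chosen after seeing the data. No sequences or coordinates are printed.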

Additional observations from a re-analysis of the deposited data

How the results depend on the processing

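The count of 9 markers at least 2-fold lower was 8 with median-of-ratios scaling, quantile normalization and the replicate block, 6 at 4-fold, and 9 without any 1 library and in the other settings tried. BXL1 was the marker lost at 8. Omitting 1 library is no replicate check, because each group counts as 1 sample. The markers' median log2 difference of -3.34 was -2.07 with a pseudocount of 208, and ran from -3.39 to -3.29 without 1 library. None of the 10 markers turned sign in 10 settings. Of all genes tested, 838 were lower, against 1310 at the pseudocount 4.15, 350 at 208, 502 after quantile normalization, 428 after median-of-ratios scaling, 108 at 4-fold, and 695 to 1027 without 1 library. The 857 higher genes became 565 at the pseudocount 208, 272 at 4-fold, and 796 to 943 without 1 library. The related lists' 21 lower and 4 higher genes numbered 8 and 1 at 4-fold. The causes of these changes were not tested. The median gene tested stood at -0.26 as deposited and at 0.00 with median-of-ratios scaling. It stood at -0.19 with a common column total and at -0.08 after quantile normalization.

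The replicate block counted a gene where both same-numbered pairs were 2-fold apart: 598 lower and 744 higher, with 20 lower in the related lists. No label ties a replicate number to a batch, and across genes the deviations of columns with 1 number had a correlation of -0.11. With crossed numbers, 9 markers and 786 genes were lower. Without known read depth, no counting error can be given.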

Other observations

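The columns of plus_Pi differed more for phosphate-starvation genes than for the starvation markers. Replicate 2 over replicate 1 was 4.16 for IPS1, 2.99 for MGD3 and 1.92 for SPX1, while it lay between 0.968 (THA1) and 1.095 (DIN1) for the 10 markers, beside a ratio of 1.0998 over all genes. The log2 difference of IPS1 was 5.90 without plus_Pi replicate 1 and 7.59 without plus_Pi replicate 2. Of the markers, BT1 had the lowest ratio of low_Pi replicate 2 to replicate 1, at 0.848, beside 0.923 over all genes.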
